A study of Rattus norvegicus with 2 samples.

Results

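The mRNA levels of axon guidance ligands and receptors were compared between 1 library of cortical neurons that received a control plasmid and 1 library of neurons that received an RNAi plasmid. A gene was taken when its rat symbol began with Sema, Plxn, Epha, Ephb, Efna, Efnb, Robo, Ntng or Unc5, or was Nrp1, Nrp2, Slit1, Slit2, Slit3, Ntn1 or Dcc. Of the 9894 RefSeq identifiers with a value, 48 met this rule. One of them, Unc50 (32 copies in the control library and 23 in the RNAi library), is spelled like the netrin receptors but is not one of them, and it is left out of every count that follows. The remaining 47 identifiers stand for 46 genes, since Epha5 is listed under 2 identifiers, and they held 3658 copies in the control library and 3027 in the RNAi library.

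Both libraries came from Sprague-Dawley rat embryos at embryonic day 16. Somatosensory cortex was dissociated, the cells were electroporated with one of the 2 plasmids, and RNA was taken after 48 h in a serum-containing medium. The control plasmid carried a scrambled sequence and the RNAi plasmid a small interfering RNA against PIWIL1, a PIWI protein studied there for its part in the polarity of newborn neurons, but which of the study's siRNAs was sequenced is not given in the sources used here. Each library is a bulk culture in which electroporated cells were not described as sorted, so that fewer cells of a type and less RNA per cell cannot be told apart. Piwil1 was listed in neither library, with 0 copies in each, so its knockdown could not be checked from these tags.

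Guidance cues are secreted or membrane-bound proteins that are read by receptors on the growth cone of an axon or on the leading process of a migrating neuron, and they attract it, repel it or stop it. Semaphorins act through plexins, with neuropilins as partners for most secreted members. Ephrins bind Eph receptor tyrosine kinases at cell contacts, and the ephrins themselves can signal into the cell that carries them. Slits repel through Robo receptors, and netrin-1 attracts through DCC and repels through UNC5 receptors. In the embryonic cortex these systems steer corticofugal, callosal and thalamocortical axons and take part in radial and tangential migration.

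The abundance of a gene is counted in copies of tags, 21-base sequences that start at a CATG site of the transcript. It is also given scaled to the clean tags of the library (TPM), a value with no correction for length or for the number of CATG sites, so levels are compared between the libraries and not between genes. The control library held 3386865 clean tags and the RNAi library 3303359, and 1947600 and 1865913 of these were assigned to genes. At this depth 3 copies correspond to 0.886 TPM in the control library and 0.908 TPM in the RNAi library, and tags with 1 copy were absent from both. With 1 library per plasmid there was no replicate check. For each gene a two-sided p from Fisher's exact test was adjusted by the Benjamini-Hochberg method over all 9894 identifiers (FDR). A gene was called lower or higher in the RNAi library when its FDR was at most 0.05 and its log2 ratio reached 0.58 in that direction. This test sets the 2 libraries against each other and not the conditions, and the 95% exact intervals of log2 ratios cover counting error only.

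Few of the ligands and receptors differed by this measure, and the 3 that did belonged to different families. Sema3c, a secreted semaphorin, and Efna4, an ephrin-A ligand, were called lower, and Plxna3, a plexin that takes part in the response to secreted semaphorins, was called higher. The 2 lower calls make up 4.26% of the 47 identifiers, against 5.97% of all genes, and the 1 higher call makes up 2.13%, against 2.96% of all genes. Among genes with 50 or more copies over the 2 libraries, 2 of the 27 guidance genes (7.41%) were called lower and 1 (3.70%) was called higher, against 8.22% and 4.11% of all genes. These shares are near those of all genes and set the guidance genes apart in neither direction. Of the 39 members listed in both libraries, 24 were lower and 15 higher in the RNAi library (61.5% lower), against 56.7% lower among all 8899 genes listed in both. Their median log2 ratio was -0.20, against -0.085 for all genes. Among genes with at least 50 copies the medians were -0.26 for the guidance genes and -0.071 for all genes.

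**Figure D1:**
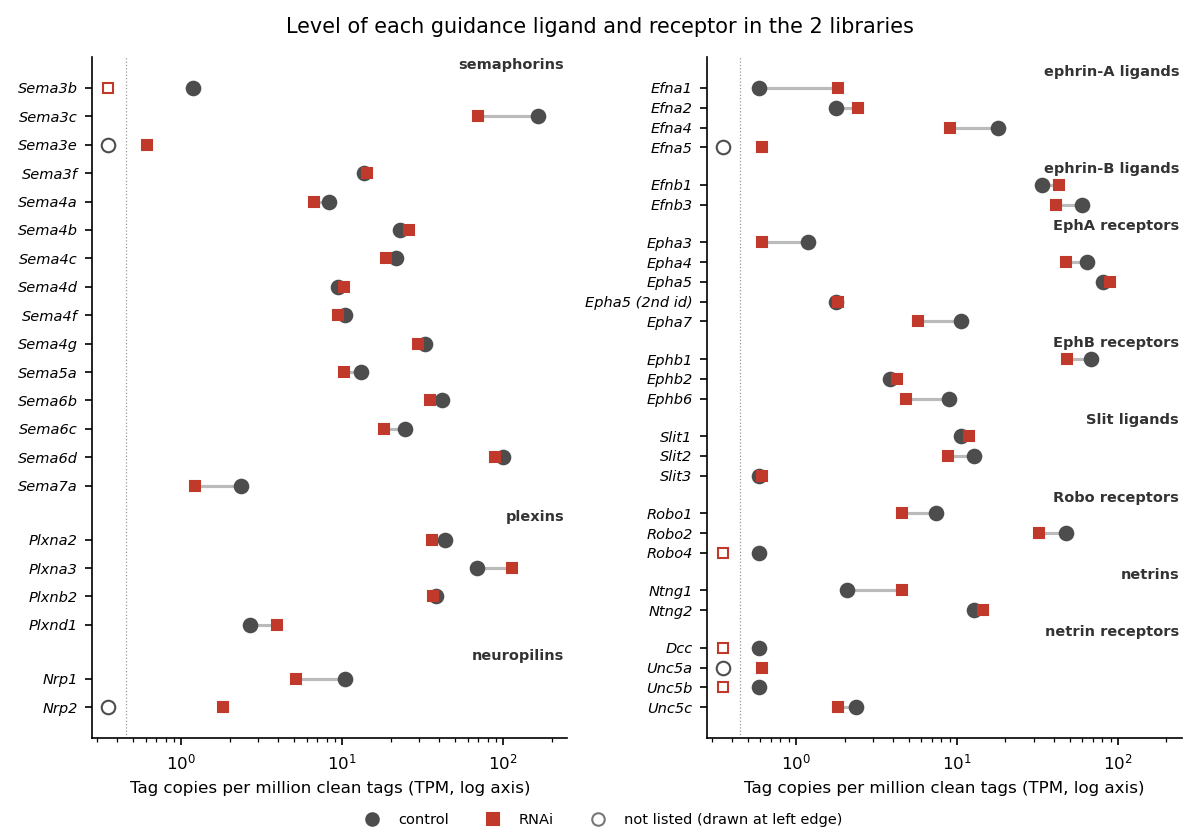
The level of each of the 47 identifiers in TPM on a log axis, with the control library as grey circles and the RNAi library as red squares, grouped by family. Open symbols at the left edge mark a library in which the gene was not listed. Sema3c (163.57 and 69.93 TPM) and Plxna3 (69.09 and 112.92 TPM) lie far apart in opposite directions.

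The semaphorins were the family with the most members, 15 in all, of which 13 were listed in both libraries. Sema3c (NM_001106578) is a secreted class 3 semaphorin that binds neuropilins and guides cortical axons. It had 554 copies in the control library and 231 in the RNAi library, or 163.57 and 69.93 TPM. The RNAi library was the lower one, at 0.428 of the control level (log2 ratio -1.23, 95% exact interval -1.45 to -1.002, Fisher exact FDR 1.53e-26). The gene was read from 12 tags, and 3 of them were well counted, with at least 20 copies over the 2 libraries. They are shown because 1 of them carries most of the difference, with the CATG site and the last 2 bases in capitals.
Sema3c, site 1 from the 3′ end: CATGagaatttaattagatGT
Sema3c, site 2: CATGtagagaaagcaaactAG
Sema3c, site 3: CATGatgaagctgtctttaCA

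The tag of site 1 held 84.3% of the copies of Sema3c and went from 478 copies to 184. At site 2 there were 29 copies and 12, the same direction as site 1. At site 3 there were 11 copies and 14, which is not lower. Without the tag of site 1 the gene had 76 and 47 copies, a log2 ratio of -0.66 (Fisher exact FDR 0.235), and it was no longer called. The bases at the end of a tag matter for this value, since the ratio between the libraries varied with them over all genes. The 634 tags that end in GT and had at least 20 copies had a median log2 ratio of -0.67, with quartiles of -1.07 and -0.26. The value of the Sema3c tag, -1.34, was lower than that of all but 14.4% of them. With copies corrected for the median of each tag end, the log2 ratio of Sema3c was -0.70, and it was still called. The part of the tag end in the remaining difference was not tested.

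No other semaphorin was called. Sema6d, a transmembrane semaphorin that binds class A plexins, had 336 copies in the control library and 294 in the RNAi library, 99.21 and 89.00 TPM. Its log2 ratio was -0.16 (95% exact interval -0.39 to 0.07), so that a change as large as the threshold lay outside the counting error. Sema6b, of the same transmembrane class, had 142 and 116 copies and a log2 ratio of -0.26 (95% exact interval -0.62 to 0.11). In the other 10 semaphorins listed in both libraries, log2 ratios ran from -0.96 for Sema7a, a membrane-anchored semaphorin with 8 and 4 copies, to 0.20 for Sema4b, with 77 and 86 copies. Sema3b was listed in the control library only, with 4 copies (Fisher exact FDR 0.333). With 3 copies put in the RNAi library it would be 1.30-fold lower there. Its 95% exact interval also held higher values, up to a log2 ratio of 0.64. Sema3e, the ligand of plexin D1, was listed in the RNAi library only, with 2 copies, too few for a ratio.

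Summed over the family, semaphorin copies went from 1572 to 1121, a log2 ratio of -0.45 (95% exact interval -0.56 to -0.34). Most of that difference was Sema3c. The other 14 semaphorins together had 1018 and 890 copies and a log2 ratio of -0.16 (95% exact interval -0.29 to -0.03), and with TMM or DESeq2 scaling the interval of this sum reached above 0 (-0.19 to 0.07 and -0.20 to 0.06).

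Sema3c was then set against each other semaphorin with at least 100 copies, and Fisher's exact test (two-sided) was applied to the copies of both genes. These comparisons between members were chosen after the values were seen, and p-values are adjusted over the 26 pairs formed within families. The log2 ratio of Sema3c was lower than that of Sema4b by the widest margin (difference -1.42, 95% exact interval -1.94 to -0.90, adjusted p = 3.81e-07). The narrowest margin was against Sema6c (difference -0.79, 95% exact interval -1.34 to -0.24, adjusted p = 0.0113 by the exact test). All 6 comparisons of this kind had an adjusted p below 0.05, and none of the 15 pairs without Sema3c had. All 6 rest on the same copies of Sema3c, most of them on 1 tag. With the tag-end correction the 6 differences shrank. They were -1.01 (Sema4b), -0.86 (Sema6d), -0.47 (Sema4c), -0.47 (Sema4g), -0.32 (Sema6b) and -0.28 (Sema6c). The corrected differences were not tested and have no interval, so the adjusted p-values hold for the uncorrected copies only.

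The plexins, which are the signalling receptors for semaphorins, and the neuropilins, their ligand-binding partners, held 555 copies in the control library and 650 in the RNAi library. Plxna3 (NM_001107581), a class A plexin and one of the receptor subunits that transmit class 3 semaphorin signals together with neuropilins, rose from 234 copies to 373. This is 69.09 and 112.92 TPM. This was a 1.63-fold difference (log2 ratio 0.71, 95% exact interval 0.47 to 0.95, Fisher exact FDR 2.17e-08). Its copies were spread over 16 tags. The 6 tags with at least 20 copies are shown because they come from 6 different sites of the same transcript and moved in the same direction.
Plxna3, site 1 from the 3′ end: CATGgcacacagacatataTG
Plxna3, site 3: CATGtctccattgtgttaaAA
Plxna3, site 4: CATGtacaatccattaggcAA
Plxna3, site 7: CATGagtttttctttgttgTA
Plxna3, site 9: CATGggatgttactagcctCA
Plxna3, site 10: CATGtcagaagagcccttgAC

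At site 7, the most copied, Plxna3 had 63 copies in the control library and 98 in the RNAi library. At site 4 there were 54 and 81 copies, and at site 9 there were 45 and 59. The log2 ratio of the 6 tags ran from 0.43 at site 9 to 1.26 at site 3. Their ends differ, and each of the 6 lay above the median of the tags with the same end. The tag of site 1, which went from 13 copies to 28, ends in TG, an end with a median of -0.67 over 866 tags. Without its most copied tag Plxna3 had a log2 ratio of 0.72 and was still called, and with the tag-end correction the log2 ratio was 0.61.

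The other plexins were not called. Plxna2, a class A plexin like Plxna3 and a receptor for class 6 semaphorins among others, had 148 and 120 copies. Its log2 ratio was -0.27 (95% exact interval -0.63 to 0.09). Plxnb2, a receptor for class 4 semaphorins, had 129 and 121 copies and a log2 ratio of -0.06 (95% exact interval -0.43 to 0.31). In both, tags of different sites pointed in both directions, with 3 of 4 well-counted tags lower for Plxna2 and 2 of 4 for Plxnb2. The 2 libraries therefore differed for Plxna3 and not detectably for its 2 best-counted relatives. The difference between members was itself larger than the counting error, 0.98 on the log2 scale between Plxna3 and Plxna2 (Plxna2 minus Plxna3 -0.98, 95% exact interval -1.41 to -0.54, adjusted p = 3.39e-05) and 0.77 between Plxna3 and Plxnb2 (95% exact interval 0.32 to 1.21, adjusted p = 0.00154). After the tag-end correction these differences were -0.85 and 0.67. Plxnd1, the receptor of Sema3e, had 9 and 13 copies. With Plxna3 left out, the other plexins and the neuropilins had 321 and 277 copies and a log2 ratio of -0.18 (95% exact interval -0.41 to 0.06).

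Nrp1, which binds class 3 semaphorins and VEGF, had 35 copies in the control library and 17 in the RNAi library. Its log2 ratio was -1.01 (95% exact interval -1.93 to -0.13), but it missed the FDR threshold (Fisher exact FDR 0.117). The tag of Nrp1 with most copies went from 26 to 15 and ends in TG, and with the tag-end correction the log2 ratio of the gene was -0.45. Nrp2, the neuropilin that binds Sema3f, was listed in the RNAi library only, with 6 copies (Fisher exact FDR 0.0730). With 3 copies put in the control library it would be 2.05-fold higher, and the 95% exact interval of its log2 ratio began at 0.27. Neither neuropilin passed the FDR threshold, so neither was called.

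**Figure D2:**
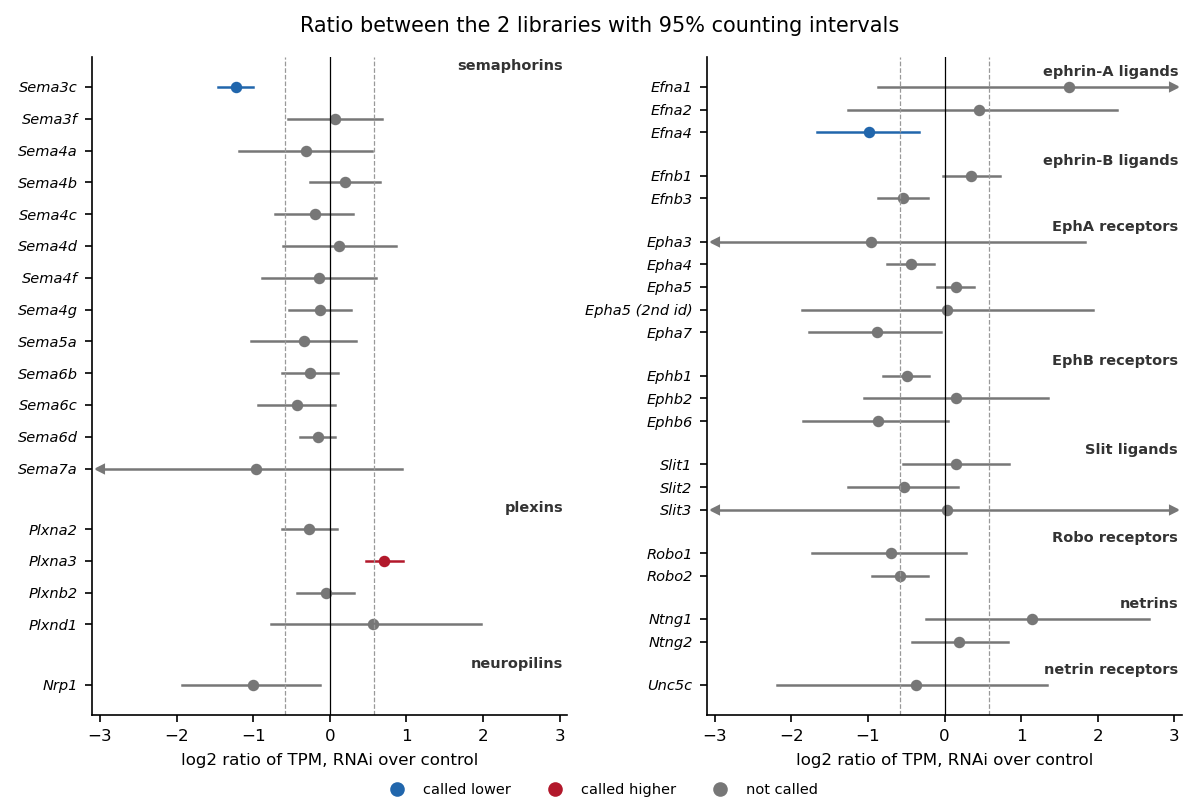
The log2 ratio of TPM, RNAi over control, of the 39 members listed in both libraries, as points with 95% exact counting intervals, grouped by family. Dashed lines mark the threshold of 0.58 in either direction, and arrowheads mark intervals that run past 3. Sema3c (-1.23) and Efna4 (-0.99) are in blue, called lower, and Plxna3 (0.71) is in red, called higher.

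Among the ephrins, Efna4 (NM_001107692), a ligand anchored in the membrane by a lipid and read by EphA receptors, fell from 61 copies to 30, which is 18.01 and 9.08 TPM. The RNAi library stood at 0.504 of the control level (log2 ratio -0.99, 95% exact interval -1.67 to -0.33, Fisher exact FDR 0.0177). It was read from 3 tags, and the 2 tags with at least 20 copies are shown because both were lower.
Efna4, site 1 from the 3′ end: CATGctggtttgtatttttTA
Efna4, site 2: CATGaggttgaatttcatgCT

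At site 1 there were 40 copies in the control library and 23 in the RNAi library, and at site 2 there were 15 and 7. The tag of site 1 ends in TA, an end whose tags had a median log2 ratio of 0.04, and only 8.56% of the 806 such tags were lower than it. The corrected log2 ratio of Efna4 was -1.003. Without the tag of site 1, 21 and 7 copies remained, and the gene was not called (log2 ratio -1.55, Fisher exact FDR 0.169). The other ephrin-A ligands were sparsely counted. Efna1 had 2 and 6 copies, Efna2 had 6 and 8, and Efna5 was listed in the RNAi library only, with 2 copies.

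The ephrin-B ligands cross the membrane and can signal in reverse, and the 2 members that were listed differed from each other. Efnb3, known as a midline barrier for corticospinal axons, had 203 copies in the control library and 136 in the RNAi library. Its log2 ratio was -0.54 (95% exact interval -0.87 to -0.22, Fisher exact FDR 0.0114), under the size needed for a call. Efnb1 had 115 and 143 copies and a log2 ratio of 0.35 (95% exact interval -0.01 to 0.72, Fisher exact FDR 0.159). The difference between them was 0.89 (95% exact interval 0.40 to 1.39, adjusted p = 0.000976) and stood at 0.89 after the tag-end correction.

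Neither gene moved evenly along its transcript, and the tags that stand apart are shown with the tags that hold most copies.
Efnb1, site 1 from the 3′ end: CATGgaaggagctgggcctTA
Efnb1, site 2: CATGgggggtggagggaggTG
Efnb3, site 1: CATGggggaggtggcggggTG
Efnb3, site 2: CATGttggccacctcaatcAC
Efnb3, site 5: CATGttctcccccgtaaccAG

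For Efnb1, site 1 went from 36 copies to 67 while site 2 went from 25 to 9. Of the tags ending in TA, 96.5% were below the first of these, whereas 20.4% of the tags ending in TG were below the second. For Efnb3, site 1 went from 21 to 5 copies, site 2 from 71 to 41 and site 5 from 71 to 51, while sites 3 (16 and 15) and 4 (15 and 16) were close to even. Without its most copied tag Efnb1 had 79 and 76 copies and a log2 ratio of -0.02. Efnb3 without its own had 132 and 85 copies and a log2 ratio of -0.60. Whether the sites of either gene belong to different transcripts was not tested.

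Eph receptors were represented by 4 EphA and 3 EphB genes, and none was called. Epha4, which binds ephrins of both classes, had 219 copies in the control library and 157 in the RNAi library. Its log2 ratio was -0.44 (95% exact interval -0.75 to -0.14, Fisher exact FDR 0.0399), and its 3 well-counted tags were lower throughout. Ephb1, a receptor for ephrin-B ligands, had 230 and 159 copies and a log2 ratio of -0.50 (95% exact interval -0.80 to -0.20, Fisher exact FDR 0.0134). Its most copied tag went from 112 to 64, and its 5 well-counted tags split into 3 lower and 2 higher. Both receptors passed the FDR and missed the ratio threshold.

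Epha5, a receptor used in topographic mapping, stood on the other side of 0 with all its tags counted. Under its first identifier (NM_001169137) it had 274 and 296 copies and a log2 ratio of 0.15 (95% exact interval -0.09 to 0.39), and under the second (NM_024367) 6 and 6. The log2 ratio of Epha4 was 0.59 below that of Epha5 (difference -0.59, 95% exact interval -0.98 to -0.20, adjusted p = 0.00647), and -0.80 with the tag-end correction. Within Epha5 the sites again disagreed, since site 1 went from 120 copies to 158 and site 4 from 60 to 42. Without its most copied tag Epha5 had 154 and 138 copies and a log2 ratio of -0.12. That is the same side of 0 as Epha4 without its own (81 and 63 copies, log2 ratio -0.33), and this pair was not tested. Epha7 had 36 and 19 copies (log2 ratio -0.89, Fisher exact FDR 0.166), and Ephb6, which lacks kinase activity, had 30 and 16 (log2 ratio -0.87, FDR 0.205). Ephb2 had 13 and 14 copies, and Epha3 had 4 and 2. The Eph receptors as a set had 812 and 669 copies, a log2 ratio of -0.24 (95% exact interval -0.39 to -0.09), which with TMM scaling was -0.15 (-0.30 to 0.0004). The ephrins had 387 and 325 copies, a log2 ratio of -0.22 (95% exact interval -0.43 to 0.0006).

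**Figure D3:**
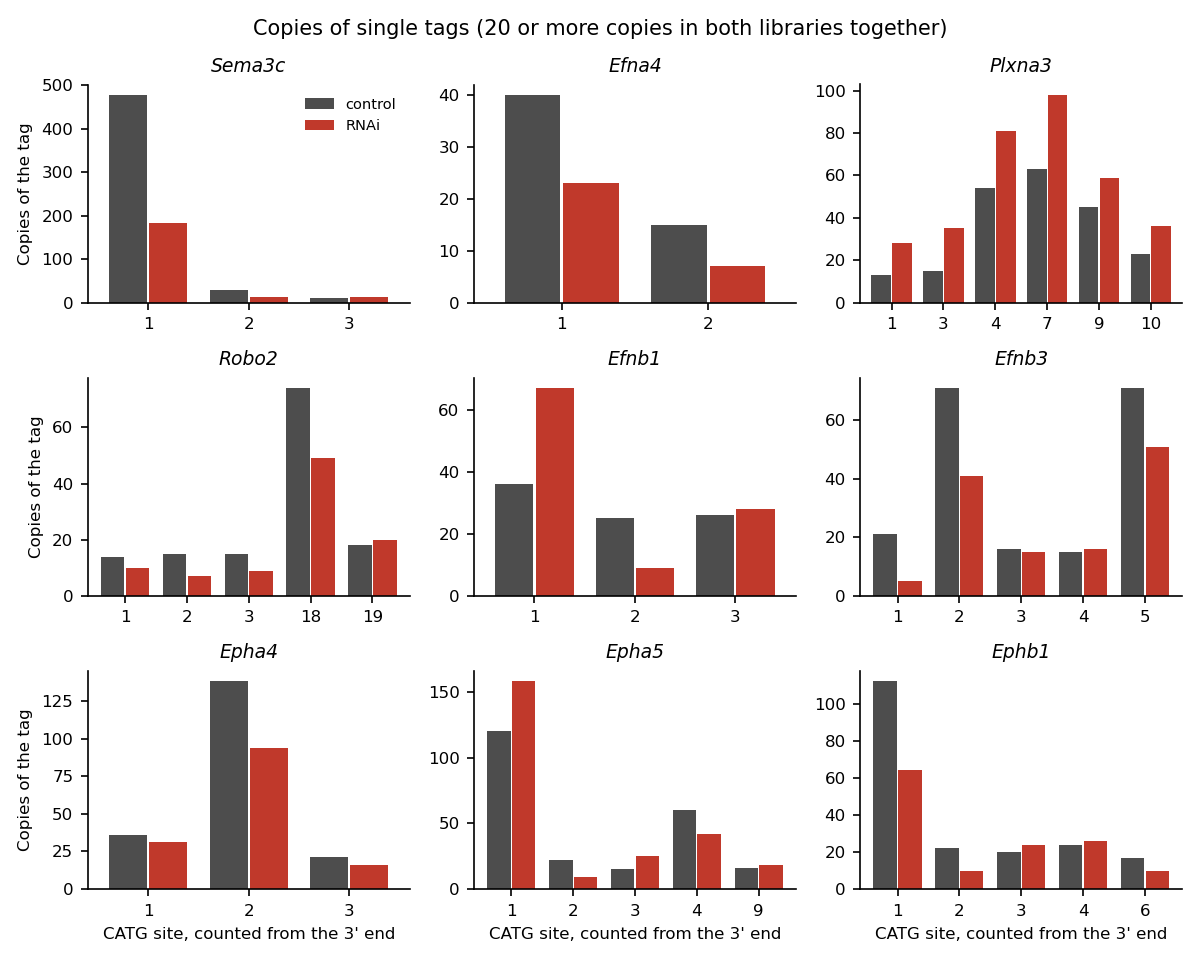
Copies of single tags in the control library (grey bars) and the RNAi library (red bars) for 9 ligands and receptors, by CATG site counted from the 3′ end of the transcript, for well-counted tags (at least 20 copies over the 2 libraries). All 6 tags of Plxna3 are higher in the RNAi library, both tags of Efna4 are lower, Sema3c rests mainly on 1 tag, and sites of Efnb1 and Epha5 point in both directions.

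Of the Slit receptors, Robo2 had 162 copies in the control library and 106 in the RNAi library, or 47.83 and 32.09 TPM. Robo2 is the axonal receptor through which Slits repel, and its log2 ratio of -0.58 (95% exact interval -0.94 to -0.21, Fisher exact FDR 0.0172) was just under the size needed for a call before rounding (-0.5759). Lower values were found in 4 of its 5 well-counted tags, the most copied of them at site 18 (74 and 49 copies). The 2 most copied tags are shown, since this member stood closest to the threshold.
Robo2, site 18 from the 3′ end: CATGtttatacactttttaAA
Robo2, site 19: CATGtatagctgagttatcAG

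Site 19 had 18 copies in the control library and 20 in the RNAi library. With the tag-end correction the log2 ratio of Robo2 was -0.76 and it was called lower. Robo1, the other neuronal Slit receptor, had 25 and 15 copies and a log2 ratio of -0.70 (95% exact interval -1.73 to 0.28). Robo4, a receptor of blood vessel endothelium, was listed in the control library only, with 2 copies, and of 5 endothelial markers only Flt1 was listed, with 2 copies in the RNAi library. Summed, the Robo receptors had 189 and 121 copies and a log2 ratio of -0.61 (95% exact interval -0.95 to -0.27), which was -0.51 with TMM and -0.52 with DESeq2 scaling. The Slits, the repellent ligands, had 81 and 70 copies in sum and a log2 ratio of -0.17 (95% exact interval -0.66 to 0.30). That interval holds 0 and also the value of the Robo sum, and the sums were not compared by a test. Slit1 had 36 and 39 copies, Slit2 had 43 and 29 (log2 ratio -0.53, 95% exact interval -1.26 to 0.18), and Slit3 had 2 in each.

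Netrins and their receptors were close to the lower limit of these libraries. Ntn1 had no value. The netrin-G proteins, membrane-anchored relatives that bind other partners than DCC, were Ntng2 with 43 and 48 copies (log2 ratio 0.19, 95% exact interval -0.43 to 0.82) and Ntng1 with 7 and 15 (log2 ratio 1.14, 95% exact interval -0.25 to 2.67, Fisher exact FDR 0.275). Dcc and Unc5b were listed in the control library only, each with 2 copies, Unc5a in the RNAi library only, with 2 copies, and Unc5c had 8 and 6. All 4 netrin receptors together had 12 copies in the control library and 8 in the RNAi library, which does not allow a statement on a difference.

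**Figure D4:**
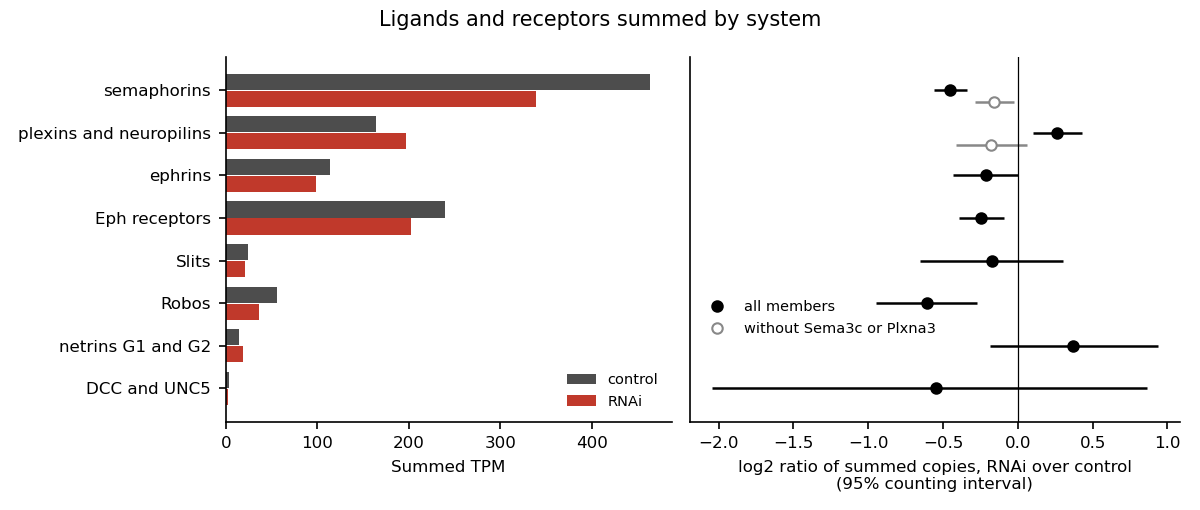
Left, summed TPM of the ligands and the receptors of each system in the control library (grey) and the RNAi library (red). Right, the log2 ratio of the summed copies with 95% exact counting intervals, as filled points for all members and open points without Sema3c or Plxna3. The sums of the semaphorins (-0.45) and of plexins and neuropilins (0.26) are near -0.16 and -0.18 without these genes.

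Across all systems, ligands had 2090 and 1579 copies (log2 ratio -0.37, 95% exact interval -0.46 to -0.27) and receptors 1568 and 1448 (-0.08, 95% exact interval -0.18 to 0.03). The apparent contrast between ligands and receptors depended on the 2 best-counted calls. Without Sema3c the ligands had a log2 ratio of -0.15 (95% exact interval -0.26 to -0.05, which reached above 0 with TMM, -0.16 to 0.05, and with DESeq2 scaling, -0.17 to 0.04), and without Plxna3 the receptors had -0.28 (95% exact interval -0.39 to -0.16). With TMM or DESeq2 scaling the sum of all receptors was above 0 (0.02 and 0.006), and that of the ligands stayed below (-0.27 and -0.28).

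How much of the family could be judged was set by depth. Of the 47 identifiers, 15 had fewer than 20 copies in both libraries together and 5 had 20 to 49, and the median was 66 copies, against 86.5 for all genes. In 4 members the interval lay wholly within 0.58 of 0, among those with at least 50 copies. The FDR from Fisher's exact test was at most 0.05 in 7 members, which were Sema3c, Plxna3, Efna4, Efnb3, Ephb1, Robo2 and Epha4, and 11 had an unadjusted p below 0.05. Of the first 7, 6 were lower in the RNAi library and 1 was higher, while 9.53% of all genes passed this FDR in the lower direction and 7.14% in the higher one. With TMM scaling Epha4 (Fisher exact FDR 0.0987) and Robo2 (0.0503) no longer passed it, and with DESeq2 scaling Epha4 did not (0.0892).

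The place and the end of each tag were not used in the choice of the genes. There were 318 tags, at up to 23 sites in 1 gene, and 39 of the 47 identifiers had tags at more than 1 site. The CATG site nearest the 3′ end, which the method is meant to read, held 46.6% of the copies of these genes in the control library and 42.0% in the RNAi library. Over all genes it held 62.7% and 64.6%. Without Sema3c the members' shares were 39.5% and 38.9%, so most of the drop between the libraries came with that gene. The copies of the members at the nearest site went from 1705 to 1272 (log2 ratio -0.39, against 0.02 over all genes) and those at all other sites from 1953 to 1755 (log2 ratio -0.12, against -0.10 over all genes). With Sema3c left out there were 1227 and 1088 copies at the nearest site (log2 ratio -0.14) and 1877 and 1708 at the others (log2 ratio -0.10). No tag of these genes ended in a run of 8 or more A, the tags with the highest ratios over all genes, and the longest run was 4. Among their 66 well-counted tags 41 (62.1%) had fewer copies per clean tag in the RNAi library, against 55.2% of 15953 such tags of other genes.

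The proteins that carry guidance signals inside the cell were described by a list of 70 effectors, of which 57 were found. By the same rule 5 were called lower (8.77%, against 5.97% of all genes) and 1 higher (1.75%, against 2.96%), shares near those of all genes. The median log2 ratio of those listed in both libraries was -0.17. Siah1, a ubiquitin ligase that acts on DCC, went from 223 copies to 112 (log2 ratio -0.96, Fisher exact FDR 2.74e-07). With the tag-end correction the log2 ratio of Siah1 was -0.5766, just under the size needed for a call. Dpysl3, a collapsin response mediator protein, went from 107 to 62 (log2 ratio -0.75, Fisher exact FDR 0.0130). Vav3, an exchange factor downstream of Eph receptors, went from 25 to 6 copies, and the kinase Pak2 from 15 to 3 (Fisher exact FDR 0.00880 and 0.0478). Rasa1, a Ras GTPase-activating protein, had 8 copies in the control library and was not listed in the RNAi library (Fisher exact FDR 0.0480). If 3 copies were put in the RNAi library, it would be 2.60-fold lower there. The exact interval of its log2 ratio also held smaller differences, up to -0.74. Rnd2, a small GTP-binding protein that controls neuronal migration, rose from 223 to 344 copies (log2 ratio 0.66, Fisher exact FDR 6.21e-07), but 14.8% of its copies lay on tags that end in a run of at least 8 A, and its log2 ratio was 0.51 without them and 0.35 with the tag-end correction, neither of which was called.

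Other guidance cues and co-receptors formed a second list of 42 genes, 30 of them found under 31 identifiers. Their median log2 ratio was -0.02, and by Fisher's exact test 1 was called lower (3.23% of the identifiers, against 5.97% of all genes) and 0 higher (against 2.96%). The gene called was Lingo1, a co-receptor of the Nogo receptor complex, with 137 and 52 copies (log2 ratio -1.36, 95% exact interval -1.85 to -0.89, Fisher exact FDR 6.47e-08).

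The culture was checked against markers of the cell types it could hold. All but 1 of 11 markers of newborn and projection neurons were listed, with 4578 summed TPM in the control library and 4156 in the RNAi library. Stmn2 alone held 2210 and 1719 of these. Map2 (24 and 8 copies) and Fezf2 (304 and 198 copies) were called lower (Fisher exact FDR 0.0461 and 0.000309). The other neuronal markers were not called and went both ways, with log2 ratios from -0.55 (Neurod6) to 0.48 (Neurod2). Markers of radial glia and progenitors summed to 1025 and 1311 TPM, of which Vim made up 789.5 and 1127. The other 6 listed markers of this kind were all at lower values in the RNAi library, with 235 and 183.8 TPM in sum and log2 ratios from -0.81 (Hes1) to -0.25 (Pax6), and none of them was called by Fisher's exact test with the ratio threshold. Collagens and other markers of fibroblasts and meninges summed to 546.2 and 523.1 TPM, interneuron markers to 94.2 and 83.3, astrocyte markers to 88.6 and 80.5, microglial markers to 18.3 and 20.9, oligodendrocyte markers to 7.38 and 5.75, and haemoglobins to 35.4 and 54.5. Among these, the interneuron marker Lhx6 was called lower (log2 ratio -0.92, Fisher exact FDR 0.0217). The haemoglobin Hba-a1 was called higher (log2 ratio 1.36, Fisher exact FDR 0.000158), and no further marker was called. The part of these cell types in the differences of Sema3c, Efna4 and Plxna3 was not tested.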

How the data were processed

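Digital gene expression tags were measured in 2 libraries, 1 per plasmid, of total RNA from cultured rat cortical neurons. For each gene the authors deposited the tag count, not normalized, and the TPM, which is the count scaled to all clean tags. They also deposited the sequence, copy count and TPM of each tag and its CATG site counted from the 3′ end. The submitters' processing notes name the genome build rn4, and the tag-matching program is not given in the sources used here. No coordinates are printed, because no genome of that build was used.

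Symbols came from a RefSeq table of the assembly GRCr8 by accession, or from the deposited description, and 9340 of 9894 identifiers (94.4%) had one. The members, the 2 further lists and the tests were chosen with earlier results of these data known. Named were every member called or listed in 1 library, the 3 members with most copies in each family, and every called gene of the further lists, and other members were added with their values. Fisher's exact test was run on copies against all other copies on genes. TPM ratios were taken per clean tag, and the intervals of genes and sums are Clopper-Pearson at 95%. The intervals of differences between 2 members are exact conditional intervals of the odds ratio at 95%. Since copies amplified by PCR are not independent molecules, intervals cover counting error only. The 3-copy floor is a fixed value put in for an unlisted gene and covers no counting error. For the tag-end correction, the median log2 ratio of tags sharing the last 2 bases (or the length of a terminal A run) was taken from a random part of the genes and removed from the rest, and the reverse. Pairs of members with at least 100 copies each within a family were compared after their values were seen. Alternatives were TMM, DESeq2 factors, edgeR's exact test with an assumed coefficient of variation (0.1, 0.2 and 0.4), a minimum of 10 copies, 1 copy added, sums per symbol, tag-based changes and stricter thresholds, and, chosen after seeing the data, clean tags as totals. The tests were tested on simulated data. SciPy 1.17.1, pandas 2.3.3, NumPy 2.4.6, Matplotlib 3.10.9 and Python 3.11.15 were used, with edgeR 4.0.16 and DESeq2 1.42.0 under R 4.3.3.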

Additional observations from a re-analysis of the deposited data

How the results depend on the processing

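Each condition had 1 library, which allowed no leaving out of a library and no estimate of the spread between cultures. No paired analysis was possible because the labels give 1 library per group and no shared replicate. The calls of Sema3c, Efna4 and Plxna3 were kept with TMM, DESeq2 factors, a minimum of 10 copies, 1 copy added, sums per symbol, A-run tags left out, 1 copy put back for tags seen in one library only, and clean tags as totals.

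With an assumed coefficient of variation of 0.1 in edgeR's exact test, the guidance genes had 1 lower call (Sema3c) and 0 higher, the effectors 1 and 0, and over all genes 170 were lower and 114 higher. With 0.2 and with 0.4, 0 members and 0 effectors were called in either direction, Lingo1 was not called (0 other cues), and all genes had 2 and 15 calls with 0.2 and 0 and 0 with 0.4. With a log2 threshold of 1 the members had 1 lower call (Sema3c) and 0 higher, and the effectors 3 and 0 (262 and 146 over all genes). With an FDR threshold of 0.001 the members had 1 lower call (Sema3c) and 1 higher (Plxna3), and the effectors 1 and 1 (257 and 163 over all genes). Leaving out the most copied tag of each gene left 0 lower calls and 1 higher call (Plxna3) among the members. The effectors then had 2 lower and 2 higher calls, and all genes had 250 and 128. This setting moved the log2 ratio of the summed semaphorins to -0.079 and of the summed ephrins to -0.44. The tag-end correction moved the semaphorin sum to -0.24, added Robo2, left 2 effectors lower and 0 higher, gave 2 lower calls among the other cues, and gave 364 and 190 over all genes. With A-run tags left out the effectors had 3 lower and 0 higher calls, with 1 copy added 3 lower, and with 1 copy put back 2 lower. Over all genes 591 were lower and 293 higher as reported, 459 and 398 with TMM, and 475 and 382 with DESeq2 factors, which moved the median of all genes by 0.09 and 0.085. The cause of these changes was not tested. Leaving out a tag also leaves fewer copies for the test, and the part of this was not tested either. Of the 26 called members and members with most copies in their family that were recomputed under the alternatives, 3 lost a call under some alternative, 1 (Robo2) gained one, and 0 called ratios changed sign.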

Other observations

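Values of the same gene at different CATG sites were also far apart in members that were not called. Of these, Plxna2, Sema6c and Sema6d also entered the pair comparisons above. Plxna2 had 20 copies in the control library and 3 in the RNAi library at site 1, whose tag ends in TG, and 9 and 14 at site 29. Sema4f had 21 and 8 copies at site 1, lower than all but 1.02% of the tags that end in TC, while its remaining tags together had 14 and 23. Sema6c had 46 and 23 copies at site 1, and its remaining tags had 37 in each library. Sema6d had 311 and 261 copies at site 1, and its remaining tags had 25 and 33.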
